A study of Mus musculus with 6 samples.

Results

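The miR-30 family was followed in osteoclasts of the mouse, the bone-resorbing cells of the marrow, after knee surgery. Its members were taken by name from the deposited panel (miR-30a, miR-30b, miR-30c, miR-30d and miR-30e). They are 5 of the 104 microRNAs (miRNAs) for which real-time PCR gave a threshold cycle (Ct), and all 5 were among the 100 miRNAs tested. The samples were 3 of osteoclasts from mice 2 weeks after ACLT (transection of the anterior cruciate ligament, which destabilises the knee) and 3 of osteoclasts from mice 2 weeks after a Sham operation. The cells were sorted magnetically from bone marrow by the surface receptors OSCAR and CTR. Of strain, age and sex the sources used here say nothing. The series text speaks of RNA pooled from 3 mice per group, so it is not settled whether the 3 samples of a group are separate mice or repeated measurements, and each p-value reflects no more than the spread among these 6 samples, which may be technical.

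A miRNA guides the silencing complex to messenger RNAs that pair with its seed, the bases near its 5′ end, and miRNAs with one seed are counted as a family because they can bind the same sites. In bone, miR-30 members are known to restrain osteoblast differentiation through the transcription factors Runx2 and Smad1. In other cells miR-30a is known to repress the autophagy gene Beclin 1.

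The mature sequences of the deposited panel are shown to make plain what the 5 assays share and where they part. Capitals mark the seed, bases 2 to 8, and all run 5′ to 3′.
miR-30a: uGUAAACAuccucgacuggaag
miR-30d: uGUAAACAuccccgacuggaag
miR-30e: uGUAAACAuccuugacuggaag
miR-30b: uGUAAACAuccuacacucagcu
miR-30c: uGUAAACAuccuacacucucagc
All 5 begin with the same 11 bases and pair through the seed with the letters UGUUUAC in a target. Counted from 1 at the 5′ end, miR-30a and miR-30d differ by U12C alone, and miR-30a and miR-30e by C13U alone. miR-30b and miR-30c share their first 18 bases and end differently. The sequences thus fall into a group of miR-30a, miR-30d and miR-30e and a group of miR-30b and miR-30c. Of the 5, 3 (miR-30a, miR-30c and miR-30e) matched a mature sequence of RefSeq (GRCm38.p6). How far assays that differ by 1 base share signal was not tested.

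In RefSeq (GRCm38.p6) the family comes from 6 hairpin genes in 3 pairs. Mir30b (chr15:68337415-68337510) and Mir30d (chr15:68341208-68341289) lie 3.7 kb apart, with no coding gene of the annotation over them. Mir30c-1 (chr4:120769534-120769622) and Mir30e (chr4:120772606-120772697) lie 2983 bases apart within the gene Nfyc, which encodes a subunit of the transcription factor NF-Y. Mir30a (chr1:23272269-23272339) and Mir30c-2 (chr1:23291701-23291784) lie 19.4 kb apart. The mature miR-30c is made from both Mir30c-1 and Mir30c-2, so its assay reads 2 genes.

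Before the values, a property of the deposited Ct bears on every comparison. Sample 3 of a group equalled sample 2 times a fixed factor, or divided by it, within 0.002 cycles in 77 of 110 wells of ACLT (factor 0.99) and in 82 of 110 wells of Sham (factor 0.97843). None of the 5 miR-30 wells was tied in this way in either group. Of the 100 tested miRNAs 16 were tied in neither group, and the 5 family members are among these 16.

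The whole family had a lower raw Ct in ACLT than in Sham, which means more PCR signal before any normalization for input. miR-30d had a raw Ct of 22.7, 23.9 and 22.7 in the ACLT samples 1 to 3, against 26.5, 26.1 and 25.3 in the Sham samples 1 to 3. miR-30a had 23.0, 23.6 and 23.3 in ACLT, against 25.4, 25.7 and 26.4 in Sham. For both, the ACLT sample with the highest Ct still lay over 1 cycle below every Sham sample. miR-30e had a raw Ct of 23.4, 23.5 and 23.9 in ACLT, against 26.3, 25.8 and 25.2 in Sham. miR-30c had 23.0, 23.9 and 24.8 in ACLT, against 25.2, 26.2 and 25.4 in Sham. In miR-30c the groups came close, since ACLT sample 3 and Sham sample 1 were neighbours. miR-30b had 24.3, 23.3 and 23.7 in ACLT, against 24.9, 25.0 and 25.0 in Sham, where its 3 samples were nearly equal. The raw Ct of the groups did not overlap for any of the 5 members, while 27.0% of the 100 tested miRNAs had non-overlapping groups with a lower Ct in ACLT. This was not particular to the family. Among the other miRNAs tied in neither group, all but miR-29b had groups apart in the same direction. The exact permutation p (two-sided) was 0.1 for each member, the smallest that 3 samples against 3 can give. In bulk RNA, fewer cells that carry a miRNA and less of it per cell cannot be told apart.

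**Figure D1:**
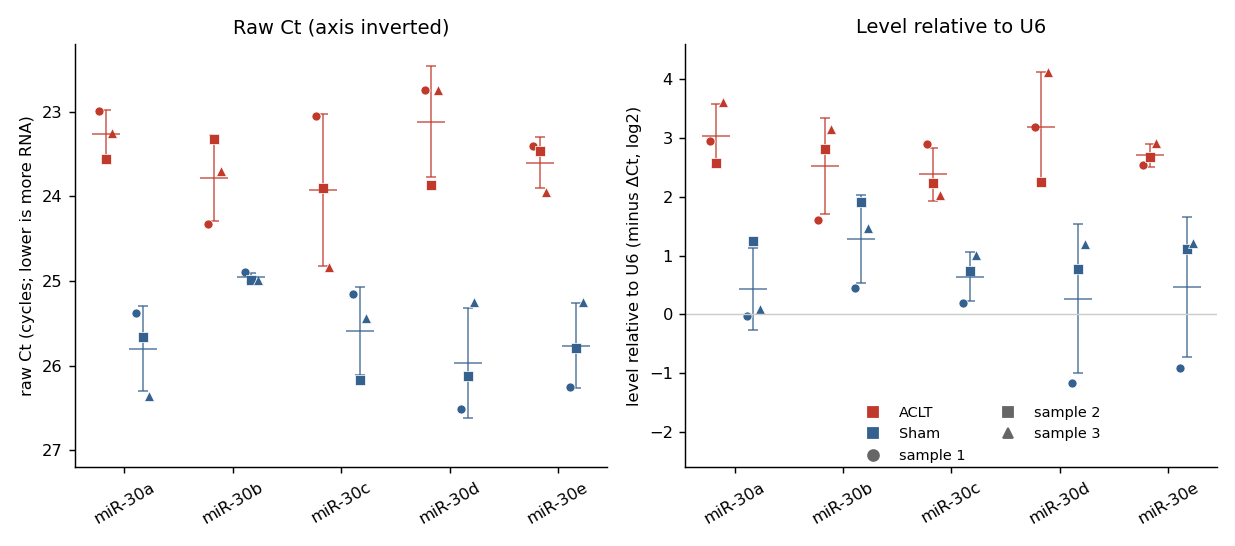
Raw Ct in cycles on an inverted axis (left) and level relative to U6 on the log2 scale (right) of the 5 miR-30 members. Each point is 1 sample, with ACLT left of Sham, and the bars give the mean ± SD of 3 samples; the raw Ct of the groups does not overlap in any member, whereas the levels of miR-30b do.

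Averaged over the 5 members, the raw Ct was 23.3, 23.6 and 23.7 in ACLT, against 25.6, 25.7 and 25.5 in Sham. These average 23.5 ± 0.21 over the ACLT samples and 25.6 ± 0.15 over the Sham samples (SD, n = 3 each), which is -2.07 cycles for ACLT minus Sham (two-sided exact permutation p = 0.1). Relative to U6, the small nuclear RNA that the authors used as normalizer, the family mean reached 2.77 ± 0.35 over the ACLT samples and 0.62 ± 0.79 over the Sham samples (SD, n = 3 each). This level is minus ΔCt, on the log2 scale, with higher values for more RNA. The spread within a group was thus wider relative to U6 than in raw Ct, most of all in Sham. Sham sample 1, in which U6 had its lowest Ct of the 6 samples (25.3 cycles), had the lowest family mean, -0.29, against 1.15 and 1.00 in Sham samples 2 and 3.

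Relative to U6, miR-30d, miR-30a, miR-30e and miR-30c rose in ACLT. miR-30d had levels of 3.19, 2.26 and 4.13 in ACLT, against -1.17, 0.77 and 1.20 in Sham, and rose by 2.93 ± 0.62 (SE of the log2 change). This SE and those below are pooled over all tested miRNAs and carry no weight of a miRNA's own spread. For miR-30d the SD was 0.93 in ACLT and 1.26 in Sham. miR-30a had levels of 2.94, 2.57 and 3.61 in ACLT, against -0.03, 1.24 and 0.09 in Sham, and rose by 2.61 ± 0.61. The groups were apart in both miRNAs, and ACLT sample 2 was the lowest ACLT sample of each. miR-30e had levels of 2.54, 2.67 and 2.92 in ACLT, against -0.91, 1.11 and 1.21 in Sham, and rose by 2.24 ± 0.62. miR-30c had levels of 2.89, 2.23 and 2.03 in ACLT, against 0.19, 0.73 and 1.01 in Sham, and rose by 1.74 ± 0.62. Sham sample 1 was the lowest of the 6 samples in both, and in miR-30e it stood far below the other Sham samples. miR-30b had levels of 1.60, 2.81 and 3.16 in ACLT, against 0.45, 1.91 and 1.47 in Sham. Its groups overlapped, ACLT sample 1 lying below Sham sample 2, and its change of 1.25 ± 0.61 did not pass.

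The test was limma across all 100 miRNAs, with the pooled SE above and Benjamini-Hochberg adjustment, at a threshold of 0.05. Its adjusted p was 6.91e-05 for miR-30d, 0.000462 for miR-30a, 0.00307 for miR-30e, 0.0334 for miR-30c and 0.161 for miR-30b. Thus 4 of the 5 members were called higher, where 13.0% of all tested miRNAs were called higher and 7.00% lower. The levels of the groups did not overlap for the same 4 members, and for 18.0% of all tested miRNAs with the higher level in ACLT. Every one of the 13 calls of a higher level by limma lay among the 16 miRNAs that were tied in neither group, and none among the other 84. The median change was 2.24 for the 5 members, 2.43 for the other 11 untied miRNAs and 0.24 for all 100 tested. The members' median thus lay near that of the other untied miRNAs. In a fit on the 16 untied miRNAs alone, a setting chosen after seeing the data, 93.8% were called higher and miR-30b was among them with the same change of 1.25 (limma adjusted p = 0.0288). In the authors' deposited table the ratio of ACLT to Sham was 7.60 for miR-30d, 6.10 for miR-30a, 4.72 for miR-30e, 3.34 for miR-30c and 2.37 for miR-30b; these ratios come from the same means.

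**Figure D2:**
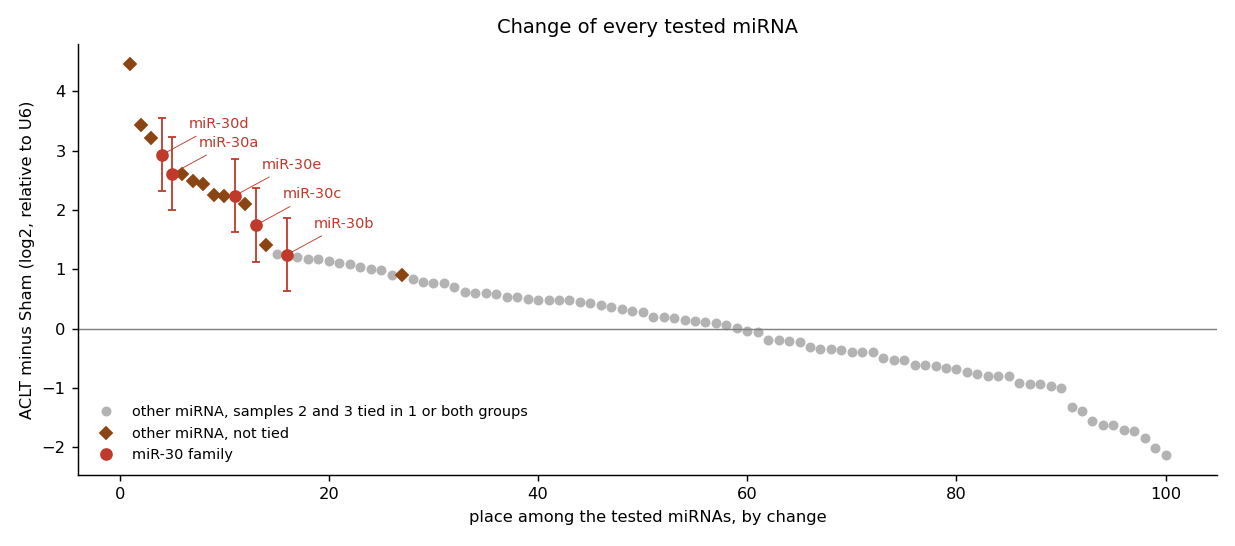
Change of each of the 100 tested miRNAs (ACLT minus Sham, log2, relative to U6), ordered by size along the horizontal axis. Red points with SE bars are the 5 miR-30 members, brown diamonds the other 11 miRNAs whose samples 2 and 3 are tied in neither group, and grey points the 84 others; the members stand near the left end among the diamonds.

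The call of miR-30c was the least stable of the 4. Leaving out 1 sample ended it in 5 of 6 cases, all but the one without Sham sample 1, with changes between 1.49 (without ACLT sample 1) and 1.92 (without Sham sample 3). miR-30a, miR-30d and miR-30e passed in all 6 of these fits by limma, in which 11.0% to 14.0% of the tested miRNAs were called higher (12.0% in 3 of them). The change of miR-30e was 1.55 without Sham sample 1 and 2.61 without Sham sample 3, and that of miR-30d was 2.21 without Sham sample 1. When samples 2 and 3 were merged into their average, miR-30c stood at 1.98 (limma adjusted p = 0.0843) and the other 3 passed (11.0% called higher). From samples 1 and 2 alone none of the 5 passed (limma; 3.00% of all tested were called higher), although miR-30d kept a change of 2.93 (adjusted p = 0.0583). The same 4 members passed on raw Ct (18.0% called higher), and centred on the median miRNA, with other Ct limits, with other variance models and with the replicate block (12.6% to 13.8% called higher; 13.4% where the Ct limit held in all samples).

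The size of the change depended on the normalizer. The panel carries 2 further reference assays without a name in the files, here reference 2 and reference 3. With reference 2 the changes were 2.28 for miR-30d, 1.97 for miR-30a, 1.60 for miR-30e, 1.10 for miR-30c and 0.60 for miR-30b, and none passed, nor did any other miRNA (0% called; limma adjusted p = 0.986 for each member; 2 of the 100 had an unadjusted p under 0.05). The SE was 1.34 to 1.35 there, more than double that with U6. With reference 3, whose own Ct on the plate of the family was 2.66 cycles lower in ACLT, miR-30d stood at 0.19, miR-30a at -0.13, miR-30e at -0.50 and miR-30c at -0.99, and none of the 5 was called higher (1.00% of the tested miRNAs were). miR-30b stood at -1.49 and was called lower there (limma adjusted p = 0.0347), as were 87.0% of the tested miRNAs. With the mean of the 3 references, miR-30d (1.80) and miR-30a (1.48) alone passed by limma (6.00% called higher in all), and after quantile normalization miR-30d alone (1.58; 11.0% called higher).

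Changing the reference adds 1 constant per plate to every change, so it leaves the order on a plate as it is by construction. Ordered from the largest rise, miR-30d was at place 4, miR-30a at 5, miR-30e at 10, level with miR-200b, miR-30c at 13 and miR-30b at 16. These places held with every single reference, their mean, the median miRNA and raw Ct. Quantile normalization, the one normalization run here that can reorder assays of a plate, moved all but 1 of them. miR-30d kept place 4 there, while miR-30a stood at 12, miR-30e at 37, miR-30c at 44 and miR-30b at 61. Relative to the median change of all tested miRNAs, the members stood higher by 2.69 (miR-30d), 2.37 (miR-30a), 2.00 (miR-30e), 1.50 (miR-30c) and 1.01 (miR-30b) with U6.

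**Figure D3:**
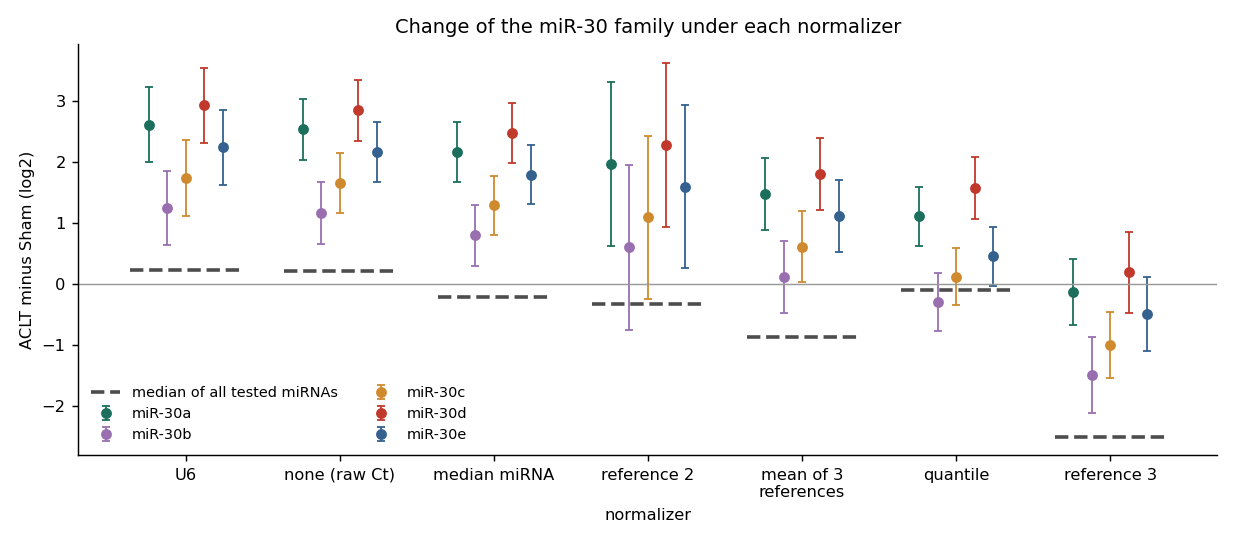
Change of each miR-30 member (ACLT minus Sham, log2; bars are SE) under 7 normalizers along the horizontal axis. Dashed lines give the median change of all 100 tested miRNAs, which moves from 0.24 with U6 to -2.50 with reference 3; the members keep their order and, except after quantile normalization, nearly keep their distance from that line.

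Within each group the members lay close together. In ACLT the order of mean levels was miR-30d (3.19 ± 0.93), miR-30a (3.04 ± 0.53), miR-30e (2.71 ± 0.19), miR-30b (2.52 ± 0.82) and miR-30c (2.38 ± 0.45; SD, n = 3 for each). In Sham it was miR-30b (1.28 ± 0.75), miR-30c (0.64 ± 0.42), miR-30e (0.47 ± 1.19), miR-30a (0.43 ± 0.70) and miR-30d (0.27 ± 1.26; SD, n = 3 for each). The order was nearly turned round, with miR-30d at the top in ACLT and at the bottom in Sham. No gap between neighbours was larger than the larger of their SDs in either group. Primer efficiencies are unknown here, so an order of levels is one of PCR signal and not of molecules. Within a sample, the raw Ct of the 5 spanned 1.59, 0.58 and 2.10 cycles in ACLT, against 1.63, 1.18 and 1.38 cycles in Sham.

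Each member was also placed among all 104 detected miRNAs by raw Ct within a sample, place 1 being the lowest Ct, a scale that needs no normalizer. miR-30d held places 10, 16 and 5 in ACLT, against 38, 20 and 16 in Sham, and miR-30a held 12, 14 and 11 in ACLT, against 23, 14 and 33 in Sham. miR-30e held 17, 13 and 19 in ACLT, against 31, 15 and 15 in Sham, and miR-30c held 13, 18 and 27 in ACLT, against 22, 22 and 21 in Sham. miR-30b held 27, 9 and 16 in ACLT, against 20, 12 and 12 in Sham. The median place of miR-30b (16 in ACLT, 12 in Sham) and of miR-30e (17 and 15) was nearer the top in Sham. That of miR-30a, miR-30c and miR-30d was nearer the top in ACLT. By place the groups shared a stretch or a place for all 5 members, while 17.0% of the tested miRNAs had groups that did not overlap and were nearer the top in ACLT.

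Differences between members within a sample do not contain the normalizer, since all 5 wells are on 1 plate. Of the 10 pairs compared, 2 had groups that did not overlap, both with miR-30b. miR-30a minus miR-30b was 1.34, -0.24 and 0.45 in ACLT, against -0.49, -0.67 and -1.38 in Sham, a difference between groups of 1.36. miR-30b minus miR-30e was -0.93, 0.14 and 0.24 in ACLT, against 1.36, 0.80 and 0.26 in Sham, a difference of -0.99. In both pairs miR-30b was the member with less signal in ACLT, relative to its partner, than in Sham. Each had an exact permutation p of 0.1 (two-sided), the smallest possible, and an adjusted p of 0.5 over the 10 pairs. None of the 10 pairs passed, and with 3 samples a group none could, so a difference in response between members was not shown.

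None of the 3 pairs from neighbouring genes passed a test of a difference in change, and none could. With 3 samples a group the smallest exact permutation p is 0.1, so neither a shared nor a separate response was shown. miR-30b minus miR-30d, from neighbouring genes on chromosome 15, was -1.59, 0.55 and -0.97 in ACLT, against 1.63, 1.14 and 0.27 in Sham. The difference between groups was -1.68, the largest in size of the 10 pairs (exact permutation p = 0.2, adjusted p = 0.6), and it lay between -2.29 and -1.22 when 1 sample was left out. The ACLT samples were on both sides of 0 and ACLT sample 2 fell among the Sham samples. miR-30c minus miR-30e, from the pair within Nfyc, was 0.35, -0.44 and -0.89 in ACLT, against 1.10, -0.38 and -0.20 in Sham. Their changes differed by -0.50 (exact permutation p = 0.5, adjusted p = 0.714), with much overlap between the groups. miR-30a minus miR-30c, the chromosome 1 pair, was 0.05, 0.34 and 1.59 in ACLT, against -0.22, 0.51 and -0.92 in Sham. The changes of this pair differed by 0.87 (exact permutation p = 0.3, adjusted p = 0.6). The second gene of miR-30c cannot be separated in either of these 2 comparisons.

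Set against each other by sequence, the groups of members differed between ACLT and Sham without overlap, though no p under 0.1 is possible here. The mean of miR-30a, miR-30d and miR-30e minus the mean of miR-30b and miR-30c was 0.64, -0.02 and 0.96 in ACLT, against -1.03, -0.28 and -0.41 in Sham. ACLT sample 2 lay only 0.26 above Sham sample 2. ACLT minus Sham was 1.10 (exact permutation p = 0.1, the smallest possible) and stayed between 0.87 and 1.37 with 1 sample left out. Each single pair across the sequence groups differed in the direction of this split, and kept that sign with 1 sample left out. The difference of miR-30c minus miR-30e then came as near 0 as -0.04 (without Sham sample 1). In size, the differences across and within the groups overlapped. Across the sequence groups the difference of change ran in size from 0.50 (miR-30c and miR-30e) to 1.68 (miR-30b and miR-30d), and within them it was -0.32 for miR-30a minus miR-30d, 0.37 for miR-30a minus miR-30e, 0.69 for miR-30d minus miR-30e and -0.49 for miR-30b minus miR-30c. The first, second and last of these within-group differences changed sign when 1 sample was left out: they ran from -0.95 (without Sham sample 3) to 0.17 (without Sham sample 1), from -0.17 (without Sham sample 3) to 0.82 (without Sham sample 1) and from -0.99 (without ACLT sample 3) to 0.22 (without ACLT sample 1).

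**Figure D4:**
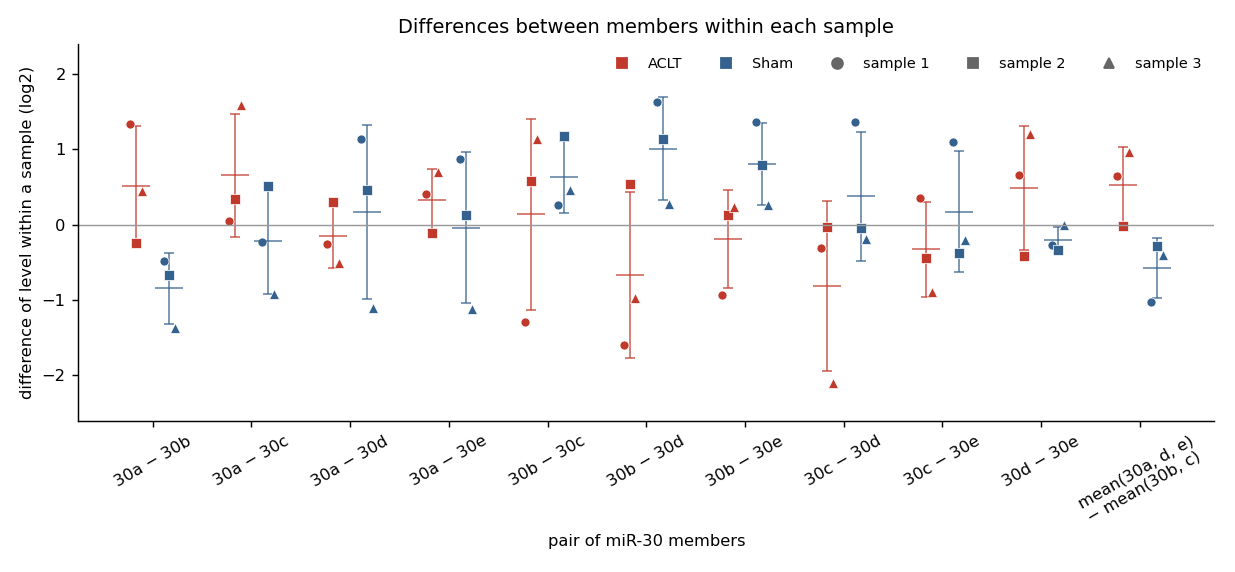
Difference of level between 2 miR-30 members within each sample (log2), for the 10 pairs and, at the right, for the 2 sequence groups. Points are samples, with ACLT left of Sham, and bars are mean ± SD of 3 samples; the groups are apart for miR-30a minus miR-30b, miR-30b minus miR-30e and the sequence groups.

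The opposite arms of the hairpins gave no signal where the panel has a star assay for them. For miR-30d it has none, so the opposite arm of that hairpin was not measured. The panel holds 5 star assays of the family (miR-30a*, miR-30b*, miR-30c-1*, miR-30c-2* and miR-30e*), which read the strand that is usually discarded, and none had a Ct in any sample. This was common on the panel, where 6 of 119 star assays had a Ct. The arms miR-30a* and miR-30e* are shown because they are nearly alike, as are their partners.
miR-30a*: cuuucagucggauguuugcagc
miR-30e*: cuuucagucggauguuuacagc
A further assay with the seed of the family, miR-384-5p (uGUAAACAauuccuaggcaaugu, seed in capitals), had no Ct either, so 5 of the 6 panel assays with this seed were detected.

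The miRNAs whose pattern over the 6 samples was most like the family mean were miR-200b, miR-378, miR-29a, miR-199a-3p and miR-200c. Likeness was the mean absolute difference between levels over the 6 samples, each miRNA centred on its own mean. It was 0.087 for miR-200b, 0.41 for miR-378, 0.47 for miR-29a, 0.48 for miR-199a-3p and 0.50 for miR-200c, with a median of 1.01 over the other tested miRNAs. The 5 members themselves lay between 0.22 (miR-30e) and 0.54 (miR-30d) from their mean. miR-200b was nearer to the family mean than any member was. Its raw Ct was 23.3, 23.6 and 23.6 in ACLT, against 25.6, 26.0 and 25.3 in Sham. Relative to U6 it had levels of 2.64, 2.49 and 3.29 in ACLT, against -0.30, 0.89 and 1.11 in Sham. All 5 of these miRNAs share the plate and the U6 well with the family, and all 5 are among the miRNAs tied in neither group.

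**Figure D5:**
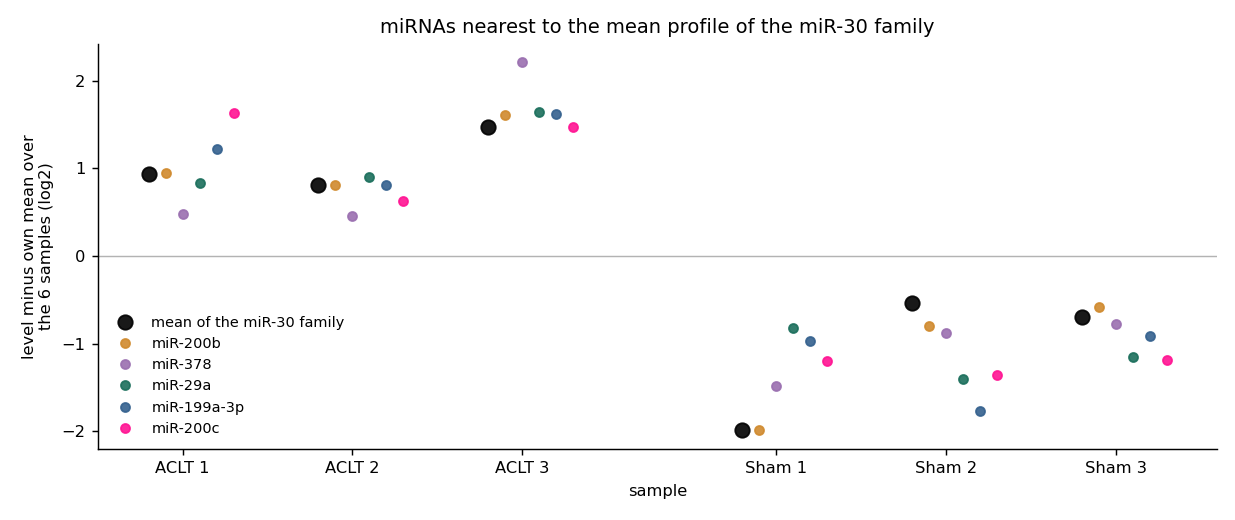
Level of the miR-30 family mean and of its 5 nearest miRNAs in each of the 6 samples, each centred on its own mean over the samples (log2). Points of 1 sample are set side by side, with ACLT samples on the left and Sham samples on the right; miR-200b lies nearly level with the family mean in ACLT samples 1 and 2 and in Sham sample 1.

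miR-30c is one of a set of miRNAs known to restrain Runx2, the master transcription factor of osteoblasts. Of the 11 miRNAs of this set on the panel, 4 were tested and the other 7 had no Ct. Besides miR-30c, which rose, miR-205 fell, with levels of -4.40, -4.43 and -3.39 in ACLT, against -3.34, -2.08 and -1.91 in Sham (log2 change -1.63 ± 0.59, limma adjusted p = 0.0352). That call was not stable: it passed in 2 of the 6 fits with 1 sample left out, those without ACLT sample 3 and without Sham sample 1. It did not pass with samples 2 and 3 averaged (limma adjusted p = 0.287), from samples 1 and 2 alone (0.303), with the replicate block (0.0933) or with reference 2 (0.986). miR-23a stood at 0.12 and miR-218 at 0.37 (limma adjusted p = 0.883 and 0.702). The median of the 4 changes was 0.24, as over all tested miRNAs, and miR-30c was the only one of the 4 with untied samples in both groups.

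Markers of other cells moved with the family in part. From the list of 5 mesenchymal miRNAs, typical of stromal cells, 3 rose by limma (miR-145 by 2.61, miR-199a-3p by 2.43 and miR-214 by 3.44), where 13.0% of all tested miRNAs were called higher. The other 2 of that list stood at -0.67 (miR-143) and -0.76 (miR-152) and did not pass. The 3 that rose are tied in neither group and these 2 are tied in both. With reference 3, miR-145 (-0.13) and miR-199a-3p (-0.30) were below 0 and none of the 3 passed, nor did any with reference 2. The summed linear level of the mesenchymal list relative to U6 was 37.5 to 51.5 in ACLT, against 4.91 to 7.16 in Sham. This sum came mostly from the 3 that rose and says little of the other 2. The mean log2 level was -3.70 in ACLT and -3.03 in Sham for miR-143, and -3.53 and -2.77 for miR-152. For miR-199a-3p, the lowest of the 3 that rose in ACLT, it was 3.20 and 0.775. Of the 4 tested epithelial miRNAs, 2 rose (miR-200b and miR-200c) and 2 fell (miR-203 and miR-205), against 13.0% higher and 7.00% lower over all tested miRNAs, and their sums were 12.9 to 22.8 in ACLT, against 3.04 to 4.56 in Sham. Here too the 2 that rose are tied in neither group and the 2 that fell are tied in both. The epithelial sums likewise came mostly from the 2 that rose. The mean log2 level was -4.51 in ACLT and -2.96 in Sham for miR-203, and -4.07 and -2.45 for miR-205. Neither rise passed with reference 2 or reference 3, where both were below 0 with reference 3 (-0.50 for miR-200b and -0.24 for miR-200c). The fall of miR-203 passed by limma in 1 of the 6 fits with 1 sample left out, the one without Sham sample 1. On raw Ct (limma adjusted p = 0.000696) and after quantile normalization (0.0149) it passed, where 12 and 14 of all tested miRNAs were called lower. With reference 2 (0.986), the replicate block (0.129) or a Ct limit of 38 (0.0502) it did not. None of the 3 erythroid miRNAs (sums 0.517 to 0.991 in ACLT, against 0.328 to 0.519 in Sham), the 3 lymphoid miRNAs (0.969 to 3.97 in ACLT, against 0.763 to 1.76 in Sham) or the endothelial miR-126-3p (0.628 to 1.40 in ACLT, against 0.565 to 1.08 in Sham) passed. Of the 3 myeloid miRNAs, miR-223 and miR-142-3p had no Ct in any sample, and miR-142-5p did not pass (0.28, limma adjusted p = 0.779). The part of other cells in the change of the family was not tested. The sorting receptors are messenger RNAs or proteins and are not assays of this panel, so the label osteoclast was not checked against them.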

How the data were processed

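Per the labels' protocols, Trizol RNA was reverse transcribed (QuantiMir), and SYBR Green PCR ran for 40 cycles on a ViiA7. The deposited raw table holds Ct per well. The deposited ΔCt table, on a log2 scale, equals raw Ct minus the Ct of the U6 well of the same sample and plate (largest deviation 1.8e-15), and the authors' ratio is 2 to the power of minus ΔΔCt, per the file headers. How the cycle threshold was set is unknown here. Of the ΔCt values, 2 lines stayed unused. A PCR panel has no read depth, and the number of samples limits the precision.

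Tested miRNAs had a raw Ct under 35 in every sample of at least 1 group. ACLT was compared with Sham by limma 3.58.1 in R 4.3.3 (lmFit, eBayes with a trend, two-sided). The fit was checked on simulated levels that were independent and had a common spread. That check held no tied wells, so it does not bear on their effect. For these data limma estimated a spread that follows the trend with level, with no weight on a miRNA's own spread. The SE ran from 0.54 to 0.83. The fit pools the spread over all miRNAs, tied wells included, as if wells were independent, so its p-values are too small to the extent that they are not. Single values were compared by exact permutation over samples. Named were the 5 members, all assays of the family, the references, the Runx2 list, and the 5 nearest profiles; miRNAs of other cells form the marker lists. Members, lists and tests were chosen with earlier results of these data known. Alternatives were other normalizers, Ct limits of 32 and 38 or in all 6 samples, other variance models, the replicate block, averaged or fewer samples, and untied miRNAs only. The rest used Python 3.11.15 with matplotlib 3.10.9, scipy 1.17.1, pandas 2.3.3 and numpy 2.4.6.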

Additional observations from a re-analysis of the deposited data

How the results depend on the processing

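The count of 4 members called higher was 0 with reference 2, with reference 3 and with only samples 1 and 2, 2 with the mean of the 3 references and 1 after quantile normalization, and 3 to 4 with 1 sample left out. With reference 2 the changes were 1.97, 1.10, 2.28 and 1.60 for miR-30a, miR-30c, miR-30d and miR-30e; with reference 3 they were -0.13, -0.99, 0.19 and -0.50, and -1.49 for miR-30b. With the mean of the references, miR-30c (0.61) and miR-30e (1.11) no longer passed. After quantile normalization miR-30a (1.11), miR-30c (0.12) and miR-30e (0.46) no longer passed and miR-30b stood at -0.29. With only samples 1 and 2 the changes were 2.15, 2.10, 2.93 and 2.50 for miR-30a, miR-30c, miR-30d and miR-30e, and none passed. With samples 2 and 3 averaged miR-30c was 1.98 and did not pass. On untied miRNAs alone, a setting chosen after seeing the data, miR-30b passed at 1.25. Between references the changes shift by construction, by a constant per plate that the references' own Ct sets. The cause of the other shifts was not tested. Over all miRNAs the 13 higher became 0 (reference 2; 2 of either direction at an unadjusted limma p under 0.05), 1 (reference 3), 6 (mean of the references) and 3 (only samples 1 and 2). The 7 lower became 0, 87 and 34 with reference 2, reference 3 and their mean with U6, 12 on raw Ct, 14 after quantile normalization, 23 with the median miRNA as zero, 0 on untied miRNAs, from samples 1 and 2 alone and from the average of samples 2 and 3, and 0 to 16 with 1 sample left out (16 without Sham sample 1, and 3 or fewer without any other). With 1 sample left out miR-30c ran from 1.49 to 1.92. The difference of change ran from -0.95 to 0.17 for miR-30a minus miR-30d, from -0.17 to 0.82 for miR-30a minus miR-30e and from -0.99 to 0.22 for miR-30b minus miR-30c. Of the 5 nearest miRNAs, 3 were kept when likeness was the largest difference. Samples of equal number were correlated by 0.24, 0.056 and 0.066 in their deviations from the group means, so the numbers were not taken as pairs, and 1 of the 3 ACLT samples correlated best with its own number. With the replicate block 13 miRNAs were higher and 1 lower, and the same 4 members passed; the block changed no call of a member. Pairing by number left the differences between members as they are. Ct limits and variance models changed no call of a member.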
